A study of Mus musculus with 13 samples.

Results

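Solute carriers are the membrane proteins that move amino acids, sugars, metals, ions, nucleotides and vitamins across cell and organelle membranes, and this account covers the solute carrier genes among the probe sets that the authors of a mouse striatum study selected and named. The members are the rows of that table with 1 gene symbol that begins with Slc or Slco and a number, without Slc17a7, the vesicular glutamate transporter of cortical neurons, which the rule leaves out. This gave 58 of the 4423 listed probe sets, for 51 of the 2872 genes listed, from 24 families, and the other 4365 listed probe sets served for comparison. The study measured striatal total RNA by Affymetrix array in naive male mice on the C57Bl/6J background that lack one or both copies of Ptpn5, the gene of the striatum-enriched tyrosine phosphatase STEP. The groups are 4 homozygous STEP knockouts, 5 heterozygotes and 4 wild type littermates, and each of the 13 samples is 1 array. No group received a treatment, and no age is stated. The labels name no driver or Cre line and do not say whether an array holds 1 animal or a pool, so p-values measure only the spread between these samples.

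Solute carriers are grouped into families by sequence, and the families differ in the solute they carry and in the force that drives it. Carriers at the plasma membrane often use the sodium gradient set up by the sodium-potassium ATPase, while carriers in synaptic vesicles and endosomes depend on the proton gradient of the vesicular proton ATPase. In the brain they clear or load transmitters, set pH and calcium, and feed neurons with glucose, lactate and amino acids. The striatum consists mostly of medium spiny neurons, which receive glutamatergic input from the cortex and thalamus. Zinc loaded by Slc30a3 into vesicles is a known feature of many cortical terminals, although the RNA for it lies in the cell bodies of the neurons that send them.

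The members belonged to 7 transport classes, assigned by family and not by the solute of each member. The class of sugars and fuels thus also holds the aromatic amino acid carrier Slc16a10, the inositol carrier Slc5a3 and the iodide carrier Slc5a5. There were 13 probe sets for sugars, fatty acids, monocarboxylates and other fuels, 11 for amino acids and transmitters, 11 for ions and pH, 7 for metals, 6 for nucleosides and nucleotide sugars, 5 for mitochondrial carriers, and 5 for vitamins, organic ions and other solutes. The largest families were SLC4, SLC7, SLC25 and SLC35 with 5 probe sets each. A pair of probe sets stood for each of 7 genes, among them 6 described here (Slc1a4, Slc25a44, Slc39a10, Slc6a17, Slc7a1 and Slc9a9). Slc4a1ap matched the rule by its name although it encodes a nuclear adaptor protein and no transporter. The member genes lie on 18 chromosomes, with 4 of the 51 (Slc25a22, Slc5a2, Slc8a2 and Slco3a1) on chromosome 7, which also carries Ptpn5. The median of the probe sets' mean intensities was 345 for the members and 338 for the other listed probe sets.

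The promoters of Slc30a3, the member with the largest difference between heterozygous and wild type arrays, and of Slc1a4, a neutral amino acid carrier named below for its values in homozygous arrays, are shown because a script found a short motif in each. Both are RefSeq windows of build GRCm38.p6 that run from 250 bases before to 50 bases after the start of the gene, on the minus strand, written 5′ to 3′. Capitals mark a metal response element in Slc30a3 (chr5:31108195-31108494), which begins 77 bases before the start, and an ATF4 element, matched on the opposite strand, in Slc1a4 (chr11:20332664-20332963), which begins 4 bases before the start.
Slc30a3: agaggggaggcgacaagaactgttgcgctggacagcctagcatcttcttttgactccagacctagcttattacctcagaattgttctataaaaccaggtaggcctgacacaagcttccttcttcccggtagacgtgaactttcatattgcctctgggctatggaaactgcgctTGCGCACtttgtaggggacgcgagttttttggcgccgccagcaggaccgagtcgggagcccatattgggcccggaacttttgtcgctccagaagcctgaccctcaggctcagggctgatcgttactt
Slc1a4: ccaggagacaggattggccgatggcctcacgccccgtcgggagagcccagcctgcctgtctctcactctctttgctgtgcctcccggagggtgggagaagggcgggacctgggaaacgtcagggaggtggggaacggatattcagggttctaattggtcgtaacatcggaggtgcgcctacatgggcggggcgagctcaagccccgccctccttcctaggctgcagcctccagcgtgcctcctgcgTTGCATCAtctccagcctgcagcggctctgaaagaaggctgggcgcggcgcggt
Windows were at hand for 38 of the 51 member genes (49 windows), and each motif was searched on both strands. Slc30a3 had 2 windows, and only the window printed here held the metal response element. The metal response element, TGCACNC or TGCGCNC, was in 16 member windows (32.7%) and in 25.7% of all 32851 windows. The ATF4 element, TGATGNAA, was in 2 member windows, of Slc1a4 and Slc9a9 (4.08%), and in 3.97% of all windows. The cyclic AMP response element, TGACGTCA, was in 1 member window, of Slc25a36 (2.04%), and in 1.79% of all windows, and the EGR site, GCGTGGGCG, was in 0 member windows and 0.612% of all windows. The shares in member windows lay near those in all windows, and a match is a description of letters only.

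The genotype labels were checked before any transporter. The headings for homozygous and wild type arrays are exchanged between the authors' 2 tables: each array headed HOM in the selected table equals, to within 0.5 intensity units in all 4423 rows, the wild type sample of the same number in the table of the whole array, and each array headed WT equals the homozygous one. The sample records were followed here. With them, 1 Ptpn5 probe set read 364, 585, 559 and 434 in homozygous arrays, 1239, 860, 1288, 990 and 761 in heterozygous arrays, and 1954, 1556, 1452 and 1633 in wild type arrays. Its groups did not overlap between homozygotes and either other genotype. The log2 difference of homozygous minus wild type was -1.75 for this probe set and -1.49 for the other Ptpn5 probe set. All differences are of log2(intensity + 16), which understates the change of dim probe sets, and a reader who follows the headings of the selected table gets the opposite sign for homozygous against wild type. The folds in the authors' deposited table follow the sample records, within 0.05 on the log2 scale for 1026 of 1027 homozygous folds and 3869 of 3874 heterozygous folds.

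The deposited values were not at a common median level, and whether the arrays had been normalized to each other is not stated. The median intensity of an array ran between 143 and 201 over the 13 arrays, and the median of all 45037 probe sets differed by 0.09 for homozygous minus wild type, 0.12 for heterozygous minus wild type and -0.03 for homozygous minus heterozygous on the log2 scale. Centring every array on its own median shifts every difference by the same amount, by -0.092 for homozygous minus wild type, -0.11 for heterozygous minus wild type and 0.022 for homozygous minus heterozygous. Differences are given before centring, with the centred value of some members beside them. Of the markers of medium spiny neurons, 0 of 14 genes were in the authors' list, as were 0 of 6 for oligodendrocytes and 0 of 6 for choroid plexus and ependyma, whose levels are not analysed here. Of 12 markers of cortical excitatory neurons, 6 were listed (Tbr1, Neurod2, Tshz2, Rprm, Nrn1 and Rasgrf2), and their 8 probe sets summed to 1773 to 5472 in homozygous arrays, 4416 to 9993 in heterozygous arrays and 1258 to 4578 in wild type arrays. The median difference of those probe sets was 0.31 for homozygous minus wild type, 1.08 for heterozygous minus wild type and -0.93 for homozygous minus heterozygous. In each comparison 0 of 8 passed limma's adjusted test, with 3, 7 and 6 at an unadjusted p under 0.05. Against wild type, 20.8% and 83.8% of the other listed probe sets were higher at that threshold, and 2.82% and 10.8% of the array. For homozygous minus heterozygous 14.5% of the other listed ones were lower and 1.9% higher, against 2.04% and 0.615% of the array. The markers were listed on the same comparisons, so nothing is read from their counts. The marker probe sets did not all move alike. For homozygous minus wild type 5 of 8 were higher, while Tbr1 (-0.34) and Neurod2 (-0.033 and -0.25) were lower. For homozygous minus heterozygous 3 of 8 were higher, those of Tshz2 (0.33 and 0.36) and Rasgrf2 (0.046). The sum leans on bright probe sets such as Nrn1, with 4319 of the 9993 on heterozygous array 5. Slc17a7 read 1011, 300.2, 218 and 885 in homozygous arrays, 1697, 1238, 1186, 742 and 2083 in heterozygous arrays, and 199, 803, 432 and 722 in wild type arrays. Of 7 astrocyte markers 2 were listed (Gfap and Aldoc), which summed to 835 to 1543 in homozygous, 1237 to 1449 in heterozygous and 1083 to 1297 in wild type arrays. The pair went opposite ways for homozygous minus wild type, with -0.47 for Gfap and 0.20 for Aldoc (limma adjusted p = 0.908 for both). For heterozygous minus wild type Gfap differed by -0.15 and Aldoc by 0.41. Of 6 markers of endothelium and pericytes 1 was listed, the smooth muscle gene Tagln, with 309.6 to 635 in homozygous, 202 to 305 in heterozygous and 156 to 253 in wild type arrays, a difference of 1.08 for homozygous minus wild type (limma adjusted p = 0.0941) and 0.86 for homozygous minus heterozygous. Of 6 microglial and 5 meningeal markers 1 each was listed, Itgam with 139.7 to 169 in homozygous, 120.1 to 157 in heterozygous and 93.0 to 126 in wild type arrays, and Aldh1a2 with 118 to 192 in homozygous, 108 to 144 in heterozygous and 100.1 to 119 in wild type arrays. They differed by 0.41 and 0.35 for homozygous minus wild type (limma adjusted p = 0.908 for both). The sum of cortical markers is set beside some transporters below, and the part of any of these lists in those results was not tested. The listed markers and the transporters were selected on the same comparisons, so shared high and low arrays are no separate result. In whole striatum, fewer cells of a type and less RNA per cell cannot be told apart.

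Transporters on the list were mostly highest in heterozygous arrays, as was the rest of the list. There 57 of 58 members were higher than in wild type arrays. So were 4283 of 4365 other listed probe sets and 36728 of 45037 probe sets of the array. Lower in homozygous than in heterozygous arrays were 49 of 58 members, 3661 of the other listed probe sets and 28075 of the array. The median difference of the 58 members was 0.19 for homozygous minus wild type, 0.30 for heterozygous minus wild type and -0.14 for homozygous minus heterozygous, beside 0.19, 0.31 and -0.14 for the other listed probe sets. After centring, the members' medians were 0.098, 0.19 and -0.12, and those of the other listed probe sets 0.096, 0.20 and -0.12. The transporters as a group thus sat where the rest of the authors' list sat. In homozygous arrays 56 of 58 members were above wild type, with Slc47a1 and Slc26a8 below it, and after centring 53 were above. Of the other listed probe sets 4143 were above it, and 3678 after centring, and of the array 36772 and 22506. In heterozygous arrays 57 of 58 members were above wild type, with and without centring, and the exception was Slc47a1. After centring 4216 of the other listed probe sets and 23307 of the array were above wild type in heterozygous arrays. The authors listed only probe sets with an unadjusted p up to 0.05 and a fold of at least 1.2 in either direction against wild type, so these directions were in large part fixed by the listing. Leaving out 1 array moved the difference of homozygous minus wild type by over 1.5 times for 40 of the 56 probe sets described here, and that of heterozygous minus wild type for 8.

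The members came onto the list mostly through the heterozygous comparison, as did the rest of the list. This rests on the same differences as above and is no separate result. Of the 58, 47 (81.0%) were listed for the heterozygous comparison alone, 8 (13.8%) for the homozygous comparison alone and 3 (5.17%) for both. Among the other listed probe sets the shares were 76.7%, 12.4% and 10.9%. Those listed for both included Slc4a3 and Slc4a7. In the authors' deposited table the folds of members against wild type reached 1.87 for heterozygotes, with adjusted p-values of 0.361 or more, and ran between -1.59 (Slc47a1) and 1.59 (Slc29a4) for homozygotes, where every listed member had an adjusted p of 0.89.

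No member passed limma's test with Benjamini-Hochberg adjustment over the whole array at 0.05. The count was 0 of 58 for homozygous minus wild type, where 0.00888% of all probe sets passed, 0 for heterozygous minus wild type (0.00222%) and 0 for homozygous minus heterozygous (0.00666%). Without heterozygous array 4, 3 members (Slc30a3, Slc39a10 and Slc9a9, limma adjusted p = 0.0386, 0.0415 and 0.0418) passed for heterozygous minus wild type. That fit called 213 of 45037 probe sets of the array. With array weights 16 members passed for homozygous minus wild type and 13 for homozygous minus heterozygous, beside 8389 and 5708 of the array. At an unadjusted p under 0.05, 12 members were higher and 1 lower in homozygous than in wild type arrays, where 2.82% of all probe sets were higher and 0.209% lower, and 20.8% and 1.33% of the other listed ones. The same rule gave 47 members higher and 0 lower in heterozygous than in wild type arrays, against 10.8% and 0.153% of the array and 83.8% and 0.55% of the other listed probe sets. It gave 7 members lower and 0 higher in homozygous than in heterozygous arrays, against 2.04% and 0.615% of the array and 14.5% and 1.9% of the other listed probe sets. After centring, 9 members were higher in homozygous than in wild type arrays (1.88% of the array, 14.3% of the other listed probe sets), 25 were higher in heterozygous than in wild type arrays (5.78% and 49.4%), and 9 were lower in homozygous than in heterozygous arrays (3.38% and 18.2%). The listing used the first pair of comparisons. It also bears on homozygous minus heterozygous, since 47 of the 58 members were listed for the heterozygous comparison alone. Nothing is read from the counts of any comparison. The comparisons share arrays, 4 wild type ones in the first pair, and are not independent of each other.

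In homozygous against wild type arrays, 2 members (Slc4a3 and Slc4a7) had every homozygous value above every wild type value, as had 1.3% of the array and 8.41% of the other listed probe sets. For heterozygous against wild type it was 15 members, with 6.55% of the array and 27.6% of the other listed probe sets. In homozygous against heterozygous arrays 1 member, Slc26a8, had all its homozygous values below, as had 0.386% of the array and 2.41% of the other listed probe sets. These calls changed with centring, and the overlap of single members is described below before centring. After it, Slc4a3 and Slc4a7 overlapped between homozygous and wild type arrays, and 2 other probe sets, 1 of them of Slc7a1, had their homozygous values above (1% of the array, 6.8% of the other listed probe sets). For heterozygous against wild type 5 members were left (1.56% and 11.1%), namely Slc11a2, Slc39a9, Slc4a3, Slco3a1 and 1 Slc25a44 probe set, of which Slc11a2 was not among the 15. For homozygous against heterozygous, Slc26a8 overlapped, while the other Slc25a44 probe set and Slc44a1 had all homozygous values below (0.879% and 3.14%).

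**Figure D1:**
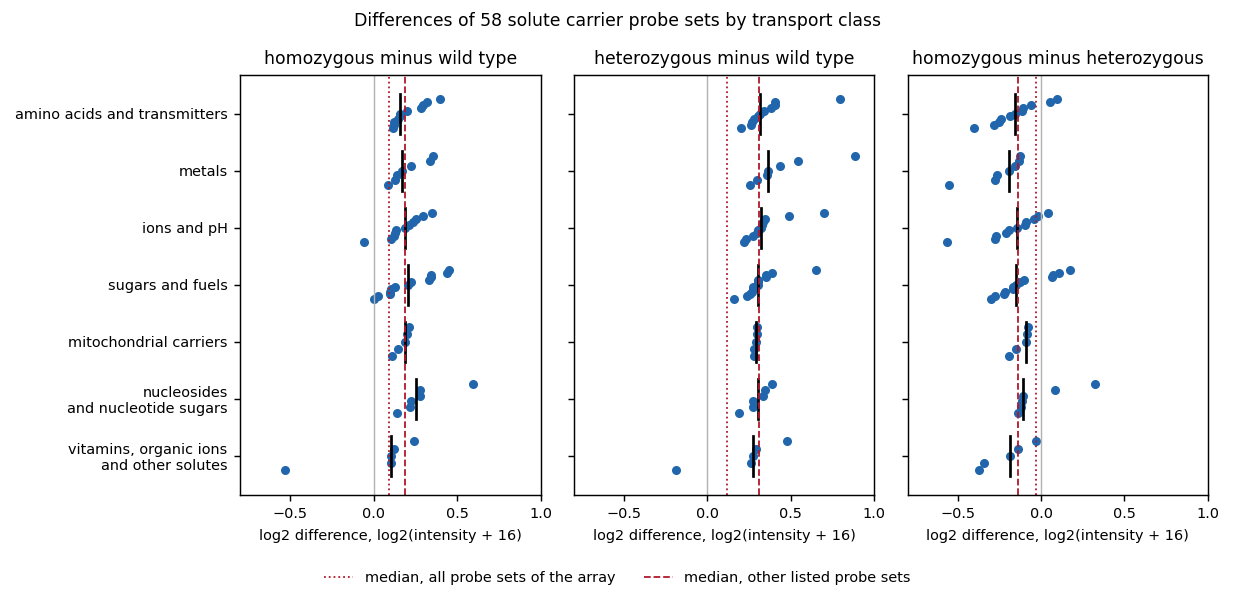
Log2 difference of each of the 58 solute carrier probe sets (points, x axis, log2(intensity + 16)) in 7 transport classes (y axis) for homozygous minus wild type, heterozygous minus wild type and homozygous minus heterozygous; black bars are class medians and red lines the medians of all probe sets of the array (dotted) and of the other listed probe sets (dashed). The class medians lie near the dashed line in each panel, with Slc30a3 and Slc6a7 to the right in the middle panel and Slc47a1 to the left in the first.

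The metal carriers held the largest difference between heterozygous and wild type arrays. Their 7 probe sets had median differences of 0.17 for homozygous minus wild type, 0.37 for heterozygous minus wild type and -0.19 for homozygous minus heterozygous. Slc30a3, which loads zinc into synaptic vesicles, read 1108, 930.1, 702 and 1011 in homozygous arrays, 1420.1, 1042, 1349.7, 854 and 2733 in heterozygous arrays, and 526, 1045, 679.9 and 757 in wild type arrays. The fifth heterozygous array stood far above the others and the groups overlapped. The difference of heterozygous minus wild type was 0.89 ± 0.23 (SE; limma adjusted p = 0.287) and 0.77 after centring, and that of homozygous minus heterozygous was -0.55 ± 0.23 (adjusted p = 1). Without heterozygous array 5 the last difference was -0.30. That array also had the highest sum of cortical markers, 9993, and the highest Slc17a7 value. Slc30a3 was higher by 0.34 ± 0.24 in homozygous than in wild type arrays (limma adjusted p = 0.908), a value of 0.18 without wild type array 1 and 0.51 without wild type array 2.

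The zinc importers of the SLC39 family, which bring zinc into the cytosol, shared this order in smaller measure. One Slc39a10 probe set read 2582, 3005, 2892 and 2888 in homozygous arrays, 4005, 3021, 3567, 2581 and 4178 in heterozygous arrays, and 2239.7, 2701, 2570.0 and 2588 in wild type arrays. Heterozygous arrays 1, 3 and 5 were above every other array, and array 4 lay within the range of the wild type ones. The difference of heterozygous minus wild type was 0.44 ± 0.12 (limma adjusted p = 0.297; 0.32 centred) and that of homozygous minus heterozygous -0.27 ± 0.12 (adjusted p = 1). The second Slc39a10 probe set gave 0.37 ± 0.14 and -0.28 ± 0.14 in those comparisons. In homozygous against wild type arrays the pair gave 0.17 and 0.09 before centring, and the second was at zero after it (-0.0049); the second gave 0.047 without wild type array 1 and 0.14 without wild type array 2.

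Slc39a6 read 651, 866, 604 and 977 in homozygous arrays, 979.8, 751, 968, 623 and 1116 in heterozygous arrays, and 532, 577, 696 and 568 in wild type arrays. Both knockout groups overlapped the wild type group through their lowest arrays. Slc39a6 was higher by 0.55 ± 0.16 in heterozygous than in wild type arrays (limma adjusted p = 0.312) and by 0.36 ± 0.17 in homozygous than in wild type arrays (adjusted p = 0.908), or 0.43 and 0.26 after centring, and the homozygous difference was 0.24 without homozygous array 4. Slc41a2, a magnesium transporter, had differences of 0.22 for homozygous minus wild type, 0.35 without the high wild type array 3 (307) and 0.098 without homozygous array 4, and 0.35 for heterozygous minus wild type. Slc39a9 and the iron carrier Slc11a2 completed the class with 0.30 and 0.25 in heterozygous minus wild type arrays.

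**Figure D2:**
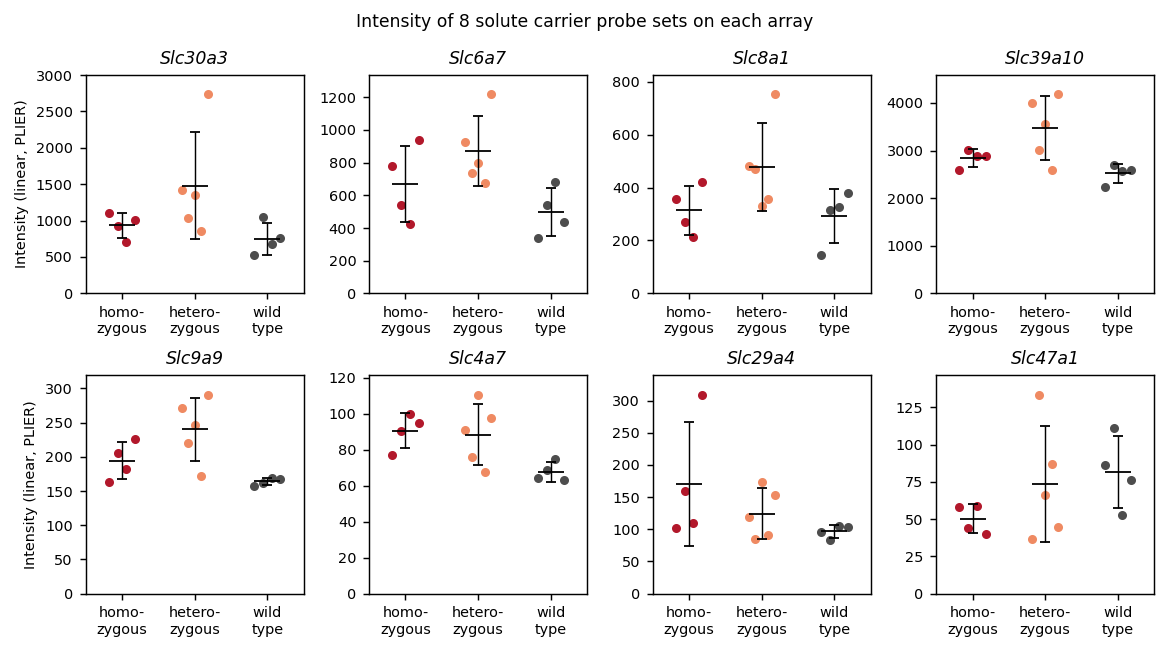
Linear intensity (y axis, PLIER) of 8 solute carrier probe sets on each array of the homozygous (left, n = 4), heterozygous (middle, n = 5) and wild type (right, n = 4) groups; points are arrays, and the bar with its whiskers is the mean ± SD. Slc30a3 on heterozygous array 5, at 2733, stands above all other arrays, Slc4a7 does not overlap between homozygous and wild type arrays, and Slc47a1 has its homozygous values between 40.0 and 58.8.

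Among carriers of amino acids and transmitters, the proline carrier had the largest difference between heterozygous and wild type arrays. The 11 probe sets had a median difference of 0.16 for homozygous minus wild type, 0.32 for heterozygous minus wild type and -0.15 for homozygous minus heterozygous. Slc6a7, the sodium-driven proline transporter of glutamatergic terminals, read 781, 541, 424 and 940.1 in homozygous arrays, 924, 737, 799, 675 and 1217 in heterozygous arrays, and 341, 538, 681 and 436 in wild type arrays. All but 1 of the heterozygous values were above every wild type value, and the homozygous values overlapped both other groups. The difference of heterozygous minus wild type was 0.80 ± 0.20 (limma adjusted p = 0.287; 0.68 centred). That of homozygous minus wild type was 0.40 ± 0.22 (adjusted p = 0.908), 0.23 without wild type array 1 and 0.22 without homozygous array 4, and that of homozygous minus heterozygous was -0.40 ± 0.20 (adjusted p = 1), -0.21 without homozygous array 3. The sum of cortical markers was also lowest among homozygous arrays in array 3 (1773), highest in array 4 (5472), and lowest of all in wild type array 1 (1258).

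Slc6a17, a carrier of neutral amino acids in synaptic vesicles, was measured by 2 bright probe sets. The brighter one read 2120.2, 1969, 1619 and 2536 in homozygous arrays, 2482, 2240.3, 2613, 2093 and 3070.2 in heterozygous arrays, and 1571, 1995, 2038 and 1896 in wild type arrays, with no overlap of heterozygous and wild type values. Its difference of heterozygous minus wild type was 0.41 ± 0.13 (limma adjusted p = 0.327; 0.29 centred), and that of the second probe set 0.38 ± 0.14. Slc36a1, which exports small amino acids from lysosomes, read 384, 432, 310.2 and 504 in homozygous arrays, 519.8, 483, 474, 414 and 527 in heterozygous arrays, and 324, 412, 337 and 369.9 in wild type arrays. Here too the heterozygous and wild type values did not overlap, by a narrow margin, and the difference was 0.41 ± 0.13 (adjusted p = 0.326; 0.29 centred).

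Slc1a4, a sodium-dependent carrier of serine, alanine and cysteine, was listed through the homozygous comparison alone. One probe set read 394, 522, 447 and 481 in homozygous arrays, 479, 372, 501, 360.3 and 521 in heterozygous arrays, and 369, 317, 444 and 340.0 in wild type arrays. Wild type array 3 lay inside the homozygous range, so the groups overlapped. The probe sets differed by 0.32 ± 0.14 and 0.30 ± 0.13 for homozygous minus wild type (limma adjusted p = 0.908 for both), and by 0.23 and 0.21 after centring. For homozygous minus heterozygous they differed by 0.05 and 0.09, and the first of these was negative without heterozygous array 2 (-0.0064), heterozygous array 4 (-0.018) or homozygous array 2 (-0.0071). The SLC7 family, which holds the arginine and lysine carrier Slc7a1, the large neutral amino acid carriers Slc7a5 and Slc7a8, and Slc7a4, had 5 probe sets with differences of 0.12 to 0.28 for homozygous minus wild type (0.024 to 0.19 centred) and 0.26 to 0.34 for heterozygous minus wild type (0.15 to 0.23 centred). None of them passed the adjusted test.

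Carriers of ions and pH included the members whose homozygous values all lay above the wild type ones before centring. Slc4a7, a sodium bicarbonate cotransporter that loads base into cells, read 77.4, 90.5, 99.8 and 95.2 in homozygous arrays, 90.8, 75.8, 111, 67.8 and 97.5 in heterozygous arrays, and 64.1, 69.0, 74.9 and 63.1 in wild type arrays. The lowest homozygous value exceeded the highest wild type value by little. The difference of homozygous minus wild type was 0.35 ± 0.13 (limma adjusted p = 0.908; 0.25 centred), and that of heterozygous minus wild type 0.31 ± 0.13 (adjusted p = 0.412). Slc4a3, a chloride bicarbonate exchanger, read 86.5, 114, 82.5 and 104 in homozygous arrays, 111, 82.6, 122, 79.6 and 98.2 in heterozygous arrays, and 77.3, 75.5, 75.3 and 72.3 in wild type arrays. Both knockout groups lay above the narrow wild type range, with differences of 0.30 ± 0.13 for homozygous minus wild type (adjusted p = 0.908) and 0.32 ± 0.13 for heterozygous minus wild type (adjusted p = 0.403), or 0.21 and 0.20 after centring.

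Slc8a1, a sodium calcium exchanger that extrudes calcium, read 357, 270.1, 211 and 419.8 in homozygous arrays, 481, 469.8, 329, 358 and 752 in heterozygous arrays, and 146, 316, 326 and 379 in wild type arrays. As with Slc30a3, heterozygous array 5 was the highest and wild type array 1 the lowest. The difference of heterozygous minus wild type was 0.70 ± 0.23 (limma adjusted p = 0.343; 0.59 centred) and 0.42 without wild type array 1, and that of homozygous minus heterozygous was -0.56 ± 0.23 (adjusted p = 1). In homozygous minus wild type arrays Slc8a1 differed by 0.14 ± 0.25, and the sign was negative without wild type array 1 (-0.15) or without homozygous array 4 (-0.012). Its relative Slc8a2, on chromosome 7, differed by 0.30 ± 0.12 for heterozygous minus wild type (adjusted p = 0.42).

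Slc9a9, a sodium proton exchanger of endosomes, read 164, 205, 182 and 226 in homozygous arrays, 272, 219.8, 246, 173 and 291 in heterozygous arrays, and 158, 162, 169 and 168 in wild type arrays by its brighter probe set. Every heterozygous value was above every wild type value, with array 4 only just so, and after centring the groups overlapped. The difference of heterozygous minus wild type was 0.49 ± 0.13 (limma adjusted p = 0.289; 0.37 centred), and 0.33 ± 0.14 by the dimmer probe set. Slc4a10, a sodium-coupled bicarbonate transporter of neurons, was bright, with group means of 2536 ± 436 in homozygous, 2687 ± 288 in heterozygous and 2107 ± 152 in wild type arrays (SD, n = 4, 5 and 4), and its heterozygous values did not overlap the wild type ones (0.34 ± 0.12, limma adjusted p = 0.36). Slc26a8, an anion transporter best known from testis, read 55.7, 59.1, 63.5 and 58.6 in homozygous arrays, 67.3, 82.6, 82.2, 64.8 and 79.3 in heterozygous arrays, and 67.5, 68.5, 53.0 and 60.5 in wild type arrays. Its homozygous values all lay below the heterozygous ones and within reach of the wild type ones, with a difference of homozygous minus heterozygous of -0.27 ± 0.11 (adjusted p = 1). All these Slc26a8 values are below the median intensity of every array.

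The carriers of sugars and fuels were the largest class, with medians of 0.20 for homozygous minus wild type, 0.30 for heterozygous minus wild type and -0.15 for homozygous minus heterozygous over 13 probe sets. Slc5a5, the sodium iodide symporter known from the thyroid and grouped by its sodium glucose carrier family, read 186, 184, 95.8 and 261 in homozygous arrays, 226, 193, 209, 145 and 255 in heterozygous arrays, and 92.1, 124, 160.0 and 124 in wild type arrays. It differed by 0.65 ± 0.19 for heterozygous minus wild type (adjusted p = 0.313; 0.54 centred), and by 0.44 ± 0.21 for homozygous minus wild type (adjusted p = 0.908; 0.34 centred), a value of 0.69 without homozygous array 3 and 0.25 without homozygous array 4.

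Slc5a3, the sodium inositol cotransporter, read 102, 152, 153 and 162 in homozygous arrays, 136, 116, 128, 100.5 and 136 in heterozygous arrays, and 99.2, 113, 113 and 108 in wild type arrays. Homozygous arrays 2 to 4 were above all other arrays while homozygous array 1 was near the wild type ones, and the difference was 0.33 ± 0.14 for homozygous minus wild type (limma adjusted p = 0.908; 0.24 centred). Slc27a2, a fatty acid transport protein, differed by 0.34 ± 0.16 in the same comparison and by 0.21 without homozygous array 2. The neuronal glucose transporter Slc2a3 was the brightest member, with 3688 ± 373 in homozygous, 4159.9 ± 472 in heterozygous and 3426 ± 76.9 in wild type arrays (mean ± SD, n = 4, 5 and 4). Its heterozygous values did not overlap the wild type ones, and it differed by 0.27 ± 0.10 for heterozygous minus wild type (limma adjusted p = 0.398; 0.16 centred) and by 0.10 ± 0.11 for homozygous minus wild type, which was near zero after centring (0.0084), 0.16 without homozygous array 1 and 0.044 without homozygous array 2. Slc16a7, a monocarboxylate transporter of neurons, differed by 0.35 ± 0.13 for heterozygous minus wild type (limma adjusted p = 0.389), with heterozygous array 3 the highest at 91.4.

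Slc5a2 and Slc2a6, sugar transporters of dim and moderate intensity, had the lowest homozygous values relative to heterozygous ones in this class. The differences of homozygous minus heterozygous were -0.30 ± 0.14 for Slc5a2 and -0.28 ± 0.13 for Slc2a6 (limma adjusted p = 1 for both), and those of homozygous minus wild type were near zero, at 0.0021 and 0.024. After centring the last pair was negative, at -0.09 for Slc5a2 and -0.068 for Slc2a6.

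The mitochondrial carriers had the narrowest range of differences of the 7 classes in each comparison. The 5 mitochondrial probe sets differed by 0.28 to 0.30 for heterozygous minus wild type, by 0.11 to 0.21 for homozygous minus wild type, and by -0.19 to -0.081 for homozygous minus heterozygous. Slc25a22, the mitochondrial glutamate carrier on chromosome 7, read 1553, 1641, 1396 and 1763 in homozygous arrays, 1838, 1493, 1686, 1446 and 1977 in heterozygous arrays, and 1234, 1481, 1406 and 1343 in wild type arrays, and the groups overlapped. Slc25a32, which carries folate into mitochondria, differed by 0.28 for heterozygous minus wild type. Slc25a44, a carrier of branched-chain amino acids, had heterozygous values above the wild type ones on both probe sets (0.29 ± 0.12 and 0.30 ± 0.12, limma adjusted p = 0.415 and 0.402). The 6 probe sets for nucleosides and nucleotide sugars had medians of 0.25 for homozygous minus wild type, 0.30 for heterozygous minus wild type and -0.11 for homozygous minus heterozygous. In the nucleotide sugar carrier family, Slc35f5 (0.33 ± 0.12, adjusted p = 0.36) and the UDP-galactose transporter Slc35a2 (0.39 ± 0.14, adjusted p = 0.373) had heterozygous values above all wild type ones.

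Slc29a4, a monoamine transporter of the nucleoside transporter family, had the largest positive difference of any member between homozygous and wild type arrays, and 1 array weighed most in it. It read 102, 159, 109 and 309 in homozygous arrays, 119.6, 84.7, 174, 90.5 and 154 in heterozygous arrays, and 95.3, 83.6, 105 and 104 in wild type arrays. The difference of homozygous minus wild type was 0.60 ± 0.23 (limma adjusted p = 0.908; 0.51 centred, a smaller size than the -0.63 of Slc47a1 below) and 0.29 without homozygous array 4, and that of homozygous minus heterozygous was 0.32 with and 0.012 without it. Slc35e3, of the nucleotide sugar carrier family, differed by 0.14 for homozygous minus wild type and by -0.14 for homozygous minus heterozygous. These values were 0.23 and -0.048 without homozygous array 1, and 0.055 and -0.22 without homozygous array 4. Slc35b2, the sulfate donor transporter of the Golgi, differed by 0.28 ± 0.13 for homozygous minus wild type (adjusted p = 0.908).

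The class of vitamins, organic ions and other solutes held the only member with an unadjusted p under 0.05 on the low side of wild type. Slc47a1, an exporter of organic cations, read 58.2, 44.1, 58.8 and 40.0 in homozygous arrays, 36.8, 133, 66.3, 86.9 and 44.8 in heterozygous arrays, and 86.0, 111, 52.7 and 76.2 in wild type arrays. Wild type array 3 lay within the homozygous range and the heterozygous arrays spanned both groups. The difference of homozygous minus wild type was -0.53 ± 0.23 (limma adjusted p = 0.908; -0.63 centred). Slc44a1, a choline transporter, differed by 0.29 ± 0.12 for heterozygous minus wild type with no overlap (adjusted p = 0.412), and the dim Slc44a3, which read 11.3 to 40.7 in homozygous, 22.3 to 58.7 in heterozygous and 15.3 to 36.2 in wild type arrays, by 0.47 ± 0.20 (adjusted p = 0.413). Slco3a1, an organic anion transporter on chromosome 7, read 231, 372, 304 and 332 in homozygous arrays, 353, 293, 344, 285 and 294 in heterozygous arrays, and 259, 264, 247 and 257 in wild type arrays, and its low homozygous array 1 and high homozygous array 2 are also those with the lowest and highest array medians.

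**Figure D3:**
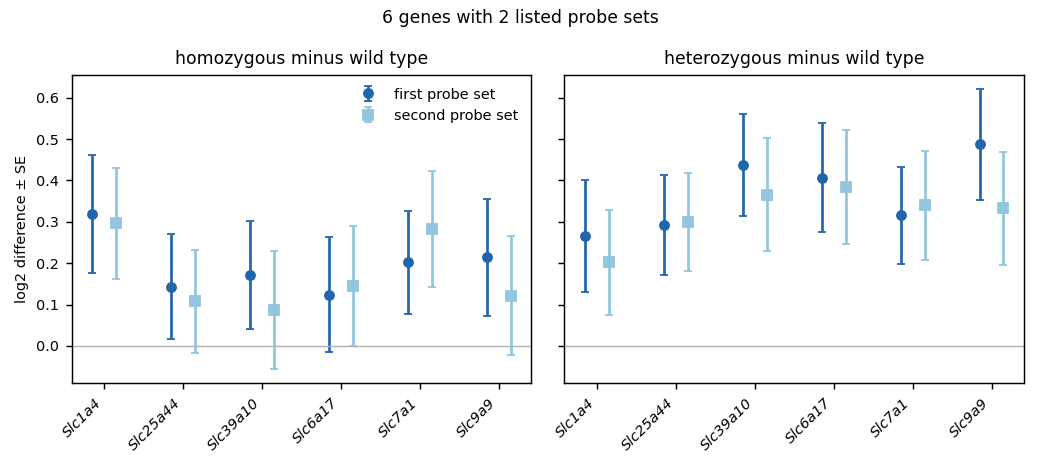
Log2 difference ± SE (y axis) of the first and second probe set of 6 genes with 2 listed probe sets, for homozygous minus wild type (left) and heterozygous minus wild type (right). Both probe sets of each gene have the same sign in each panel, and their gaps are at most 0.093 on the left and 0.15 on the right.

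The members not yet given values had differences of heterozygous minus wild type close to the members' median of 0.30. They were 0.33 for the anion exchanger Slc26a4, 0.23 for the sodium-coupled bicarbonate exchanger Slc4a8, 0.27 for the adaptor gene Slc4a1ap, 0.25 and 0.30 for the fatty acid transport proteins Slc27a3 and Slc27a4, 0.27 for Slc37a3, 0.35 for the aromatic amino acid carrier Slc16a10, 0.35 for Slc35f4, 0.28 for the mitochondrial nucleotide carrier Slc25a36 and 0.26 for the citrate carrier Slc13a5. Slc16a10 differed by 0.16 without wild type array 1 and by 0.56 without wild type array 2, and Slc27a3 by 0.16 without heterozygous array 3. None passed the adjusted test.

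Probe sets of the same gene agreed in sign for 6 of 6 genes in every comparison. Their differences lay apart by at most 0.093 for homozygous minus wild type, 0.15 for heterozygous minus wild type and 0.061 for homozygous minus heterozygous, which is near or below 1 standard error. Both were chosen by the authors on the same comparisons, so the shared sign is a description.

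Single arrays were high or low across many transporters at once. Heterozygous array 3 was the highest of the 13 for 20 members (34.5%, against 33.7% of the other listed probe sets and 29.2% of all probe sets). Heterozygous array 5 was the highest for 14 members (24.1%, against 28.7% and 5.0%). Heterozygous array 1 and homozygous array 4 were the highest for 7 members each (12.1%). The shares beside these were 12.8% and 10.4% for heterozygous array 1, and 6.99% and 8.83% for homozygous array 4. Wild type array 1 was the lowest for 22 members (37.9%, against 27.5% of the other listed probe sets and 5.82% of all probe sets). After centring, heterozygous array 5 was the highest for 33 members (56.9%, against 57.6% of the other listed probe sets and 16.6% of all probe sets). Heterozygous array 3 had the second highest median intensity, 198, and heterozygous array 5 the highest sum of cortical markers.

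**Figure D4:**
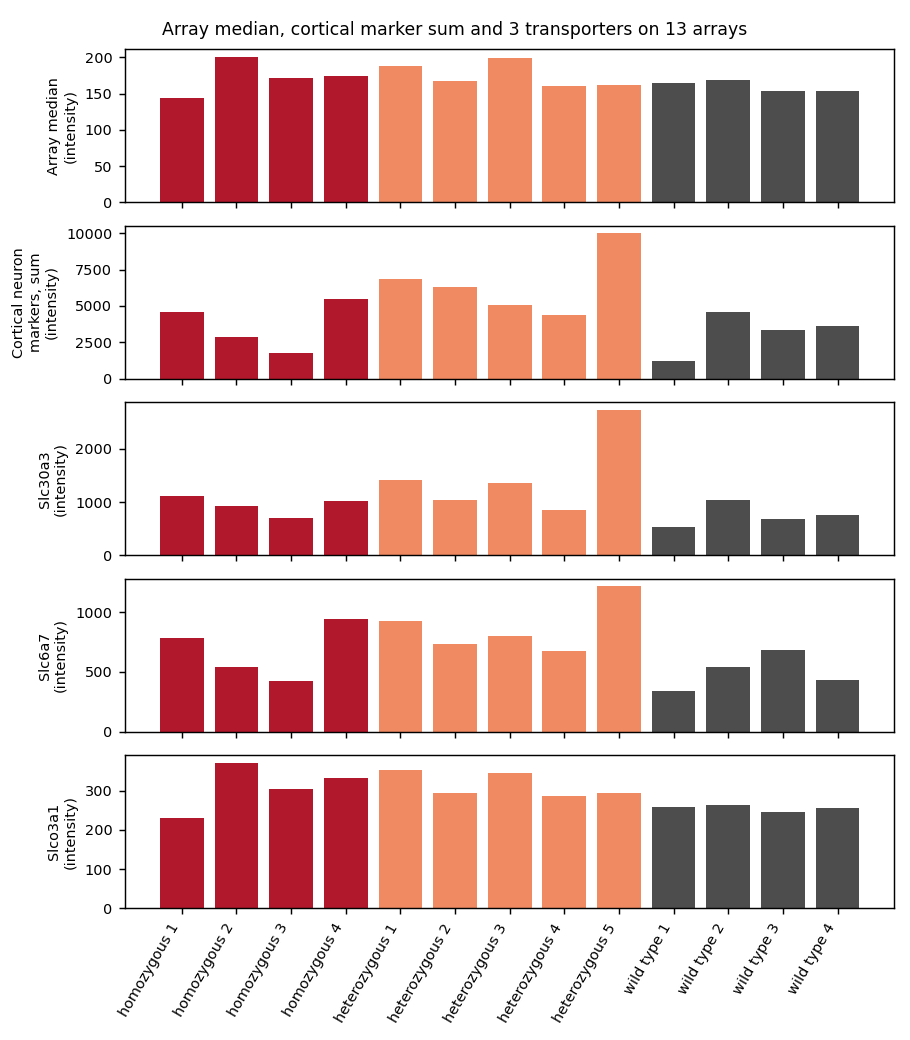
Bars give, for each array of the homozygous (red), heterozygous (orange) and wild type (grey) groups, the array's median intensity, the summed intensity of 8 cortical neuron marker probe sets, and the intensities of Slc30a3, Slc6a7 and Slco3a1. Slc30a3 and Slc6a7 are highest where the marker sum is highest, on heterozygous array 5 (9993), and lowest on wild type array 1. Of the other listed probe sets, 28.7% are highest on heterozygous array 5 and 27.5% lowest on wild type array 1. Slco3a1 is highest and lowest on homozygous arrays 2 and 1, which have the highest and lowest array medians (201 and 143). Markers and transporters were listed on the same comparisons, and causes were not tested.

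The machinery that powers or regulates these carriers was only partly on the authors' list. Of 16 genes of the vesicular proton ATPase, 4 were listed (Atp6v0a1, Atp6v1a, Atp6v1b2 and Atp6v1g2), and their 5 probe sets differed by 0.27 to 0.35 for heterozygous minus wild type. Of 13 transporter partners and regulating kinases, 2 were listed, the kinases Wnk2 (0.45 and 0.30 for heterozygous minus wild type) and Stk39 (0.28). None of these 8 probe sets passed limma's adjusted test in any of the 3 comparisons. At an unadjusted p under 0.05 there were 5 of 5 for the proton ATPase and 2 of 3 for the partners and kinases in heterozygous minus wild type, all higher, and 0 and 1 in homozygous minus wild type. The shares of all probe sets higher at that threshold were 10.8% and 2.82%, and those of the other listed ones 83.8% and 20.8%; these probe sets were listed on the same comparisons, so nothing is read from their counts.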

How the data were processed

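Striatal total RNA of 13 samples was hybridised as biotinylated cRNA to Affymetrix arrays, per the labels' protocols. The authors deposited linear intensity values, for which the submitters' processing notes name PLIER, for 45101 probe sets; no source used here gives the array model, the PLIER version or the scaling. The authors also deposited a table of 4423 selected probe sets with gene symbols, rounded intensities, signed linear fold values against wild type (a negative fold is lower), and raw and adjusted p-values, per the file headers. That table fixed the members only. Its homozygous and wild type headings are exchanged against the sample records, which were followed.

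After 64 control probe sets were left out, 45037 were fitted as log2(intensity + 16) on genotype with limma 3.58.1 in R 4.3.3 (trended eBayes, two-sided, Benjamini-Hochberg over all, threshold 0.05); the script was tested on simulated data. Depth does not apply to arrays, and the number of arrays limits the precision. Alternatives were other offsets, normalizations, filters, weights, groups and the replicate number as a block, and each array left out in turn. Named are, from each class, the members with the smallest p in each comparison (a pair each), and genes with several probe sets; other members were added so that each has a value, and among them Slc2a3, Slc4a10, Slc8a2 and Slc27a2 were chosen for detail after their values were seen. The members, lists and motifs were chosen with earlier results of these data known. Gene names outside the selected table were not used here. Results of 1 member gene and of 1 pathway list are not reported here, and that gene stays in the counts and medians.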

Additional observations from a re-analysis of the deposited data

Results flagged for a closer look

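In 56 probe sets and 3 genotypes, 8 of 168 groups held an array whose gap to the nearest other array exceeded Dixon's 95% critical share of the group's range, where chance gives about 1 in 20. Slc5a3 read 102.2 on homozygous array 1, below 152 to 162 on the other homozygous arrays. Slc16a7 read 91.42 on heterozygous array 3, above 72.1 to 75.4 on the other heterozygous arrays, and Slc27a3 read 93.33 on the same array, above 58.8 to 66.5. Slc41a2 read 307.4 on wild type array 3, above 206 to 219.8 on the other wild type arrays. On that array Slc8a2 read 845.7, below 1000.2 to 1026, and 1 Slc25a44 probe set read 496.1, below 526 to 531. Slc5a2 read 73.93 on wild type array 1, above 61.3 to 62.7, and Slc2a6 read 109.4 on it, below 132 to 136. Without wild type array 1, Slc2a6 differed by -0.043 for homozygous minus wild type, against 0.024 with it.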

How the results depend on the processing

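The members' median differences kept their sign and moved by less than the spread between members under every alternative except the exchanged headings: taking the headings of the selected table as deposited, an alternative chosen after seeing the data, turned the median of homozygous minus wild type to -0.19. Leaving out 1 array at a time gave medians of 0.15 to 0.24 for homozygous minus wild type, 0.26 to 0.36 for heterozygous minus wild type, and -0.19 to -0.086 for homozygous minus heterozygous, with 0, 0 to 3 and 0 members past the adjusted test. The 3 were Slc30a3, Slc39a10 and Slc9a9 (limma adjusted p = 0.0386, 0.0415 and 0.0418) without heterozygous array 4, where 213 probe sets of the array passed. Array weights called 16 members in homozygous minus wild type, 0 in heterozygous minus wild type and 13 in homozygous minus heterozygous, with 8389, 4 and 5708 probe sets called on the array, and they gave homozygous array 3 a weight of 12.03 against 0.209 to 2.91 for the others. Over the whole array the plain fit called 4, 1 and 3, and fits of only the groups compared 18, 1 and 12; causes were not tested.

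Whether the replicate numbers pair the arrays is not known. Deviations of same-numbered arrays correlated between -0.45 and 0.19, over 0.1 in 2 of 12 pairs. They were taken before centring and not set against differently numbered arrays, so they cannot decide it. With the replicate block (arrays 1 to 4 of each group) the medians were 0.19, 0.29 and -0.13, 0 members passed in each comparison, and 17, 6 and 12 probe sets of the array passed.

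Among single members, the sign for homozygous minus wild type turned under array weights for Slc6a17 (-0.15 and -0.15), Slc9a9 (-0.029), Slc11a2 (-0.020), Slc13a5 (-0.024), Slc26a8 (0.013), Slc2a6 (-0.16), Slc36a1 (-0.16), Slc5a5 (-0.20), Slc6a7 (-0.058), Slc7a5 (-0.14), Slc7a8 (-0.088) and Slc8a1 (-0.33). Under quantile normalization it turned for Slc25a44 (-6.0e-05), Slc39a10 (-0.032), Slc2a6 (-0.066), Slc44a1 (-0.015), Slc5a2 (-0.066) and Slc8a2 (-0.016). Median centring turned Slc39a10 (-0.0049), Slc2a6 (-0.068) and Slc5a2 (-0.090), and centring over the unlisted probe sets, also chosen after seeing the data, turned Slc2a6 (-0.055) and Slc5a2 (-0.077). Leaving out 1 array turned Slc2a6 (range -0.071 to 0.092), Slc44a3 (-0.039 to 0.31), Slc5a2 (-0.063 to 0.070) and Slc8a1 (-0.15 to 0.30). For heterozygous minus wild type array weights turned Slc47a1 (0.18). For homozygous minus heterozygous they turned Slc44a3 (0.13) and Slc7a1 (0.0039), quantile normalization turned Slc7a1 (0.013), and leaving out 1 array turned Slc1a4 (-0.018 to 0.12) and Slc7a1 (-0.15 to 0.023).

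Solute carriers of the whole array were not counted, since gene names for unlisted probe sets were not used here. The filter on dim probe sets left 38 members.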
